A study of Mus musculus with 8 samples.

Results

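The comparison of TAF15-ZNF384 with full-length ZNF384 asks how a leukaemia fusion protein and the normal transcription factor it contains differ in the transcripts of 1 kind of host cell. It used 4 of the 8 RNA-seq libraries of the study, 2 with each protein, chosen by their labels and not by any measured value. All 32499 genes of the count table belong to the comparison. Of these, 12970 had enough counts to be tested.

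The host cells were pre-B cells derived from bone marrow of Arf-/- C57BL/6 mice, so that all groups, the controls included, lacked this tumour suppressor. Lentivirus carried HA-tagged TAF15-ZNF384 into 1 group and HA-tagged ZNF384 into the other. A further group received the empty vector (EV) and is given here as the baseline of both proteins. A group with TCF3-ZNF384 entered the joint estimate of the spread. Its values are given, without a test, beside some of the genes where TAF15-ZNF384 lay outside ZNF384 and EV. GFP+ cells were sorted, and their total RNA was made into stranded libraries. Each group had 2 libraries, numbered replicate 1 and replicate 2. The study's design text calls them biological replicates, but the sources used here do not say whether they came from separate cultures or transductions. The p-values therefore measure only the spread between these samples. The groups model forced expression from a virus in cells that keep their own Zfp384 gene.

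ZNF384 is a zinc finger transcription factor that binds runs of adenine and thymine in DNA. In acute leukaemias of the B lineage, and in leukaemias that mix lymphoid and myeloid features, its gene is joined to that of a partner such as TAF15, an RNA-binding protein of the FET family, or TCF3, an E protein needed for B cell development. The fusions keep the zinc fingers and gain the amino-terminal region of the partner. Pre-B cells are precursors that rearrange their immunoglobulin genes and depend on interleukin-7 and the pre-B cell receptor.

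Total counts were 9381954 and 9963494 in the TAF15-ZNF384 libraries and 41483660 and 20298726 in the ZNF384 libraries. A set of 5 abundant non-coding transcripts, namely Rmrp, Rpph1, AY036118, Gm26917 and Gm42418, took 28.1 and 29.6% of the counts with TAF15-ZNF384, 10.9 and 12.5% with ZNF384, and 27.2 and 33.2% with EV. Depth and this share thus moved with the groups compared. Leaving those genes out gave 4296 changed genes in place of 4320, and thinning every library to 9381954 counts gave 2942. Values below are CPM, a gene's count scaled to a common library size with TMM factors, listed as replicate 1 and replicate 2. The deposited column names of the EV libraries lack a suffix that the other libraries share, and a separate handling of EV cannot be told apart from its group.

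The cells carried the B lineage markers in every group. Summed over 10 such markers, the levels were 4250 and 4270 CPM with TAF15-ZNF384, 4170 and 4450 CPM with ZNF384, and 4220 and 4020 CPM with EV. Markers of other cells summed to far lower levels: 10 myeloid markers to 4.78 and 5.71 CPM with TAF15-ZNF384 against 6.19 and 6.99 CPM with ZNF384, and 6 stromal markers to 0.652 and 1.06 CPM against 0.367 and 0.524 CPM. The 8 T and NK cell markers summed to 21.7 and 19.7 CPM with TAF15-ZNF384 against 21.2 and 25.4 CPM with ZNF384, nearly all of it from Lck, a kinase gene also used in B cells. Klrb1c, a receptor of NK cells and the other tested member, was at 0.761 and 0.317 CPM with TAF15-ZNF384 against 0.0459 and 0.0437 CPM with ZNF384, a ratio of 11.9 on 3 ZNF384 counts (counting interval 3.06 to 67.2, adjusted p = 0.0256), a call lost without TAF15-ZNF384 replicate 1 (0.256), ZNF384 replicate 1 (0.116) or ZNF384 replicate 2 (0.0531). Cd8a, S100a8, S100a9 and Dcn had no count in any of the 4 libraries compared. The erythroid and megakaryocyte markers summed to 6.63 and 5.39 CPM with TAF15-ZNF384 and 3.55 and 3.45 CPM with ZNF384, without overlap. Of those 6 markers, 5 are in the table and 2 were tested: Klf1, the erythroid factor, did not pass (adjusted p = 0.311), and Itga2b, an integrin of platelets and progenitors, was at 2.72 and 2.96 CPM with TAF15-ZNF384 against 1.35 and 1.22 CPM with ZNF384 (adjusted p = 0.0144). The Itga2b call was lost without TAF15-ZNF384 replicate 1 (adjusted p = 0.0601), without TAF15-ZNF384 replicate 2 (0.0829) and after thinning (0.0715). The part of such cells in the results was not tested. In bulk RNA, fewer cells of a type and less RNA per cell cannot be told apart.

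The transcript that the constructs were meant to raise differed between the groups. Zfp384, the mouse gene for ZNF384 (mm9 chr6:124959163-124987883, plus strand, protein coding), was at 185 and 162 CPM with TAF15-ZNF384, 51.1 and 90.2 CPM with ZNF384 and 24 and 21.6 CPM with EV. It was 2.47-fold higher with TAF15-ZNF384 than with ZNF384 (log2 fold change 1.30 ± 0.24 SE, adjusted p = 0.00511), and both construct groups lay above EV. How far reads of the constructs are assigned to the mouse gene is not known from these files, so the ratio does not measure the proteins. The amount of transcript and the kind of protein changed together in this comparison and cannot be told apart. The other named components moved little. Taf15 was at 27.5 and 22.2 CPM with TAF15-ZNF384 and 32.3 and 30.4 CPM with ZNF384 (log2 fold change -0.34 ± 0.12, adjusted p = 0.0466), so that no rise marked its fusion, and the call was lost under 8 of the other settings, with adjusted p = 0.353 without TAF15-ZNF384 replicate 2 and 0.163 without ZNF384 replicate 1. Tcf3 was at 96.1 and 93.9 CPM against 62.8 and 75.2 CPM (0.46 ± 0.11, adjusted p = 0.00453; adjusted p = 0.0527 without TAF15-ZNF384 replicate 1). Cdkn2a, the gene of Arf and p16, was at 59.5 and 66.6 CPM with TAF15-ZNF384 and 59 and 79.2 CPM with ZNF384 and did not pass the test (adjusted p = 0.478). A count over the whole gene cannot tell p16 from Arf. Without ZNF384 replicate 1 it passed, at -0.31 (adjusted p = 0.0244).

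Between TAF15-ZNF384 and ZNF384, 4320 of the 12970 tested genes (33.3%) changed at an adjusted p under 0.05, 2003 of them higher (15.4%) and 2317 lower (17.9%) with TAF15-ZNF384. All adjusted p-values are from edgeR's quasi-likelihood test with Benjamini-Hochberg adjustment over the tested genes. In 31.9% of tested genes both TAF15-ZNF384 libraries lay above both ZNF384 libraries and in 34.5% below, so a lack of overlap alone is common. At 2-fold or more, 844 genes (6.51%) were higher and 323 (2.49%) lower. The shares of 15.4% higher and 17.9% lower are the background for every count of list members below. The median log2 fold change of all tested genes was -0.02. Against EV, TAF15-ZNF384 changed 1430 genes, 650 higher (5.01%) and 780 lower (6.01%), and ZNF384 changed 2675 genes, 1395 higher (10.8%) and 1280 lower (9.87%). With only the groups compared in the fit, the order of these counts turned, to 2746 with TAF15-ZNF384 and 1787 with ZNF384. All 3 comparisons share libraries, so their values are set side by side below and not tested against each other. Without TAF15-ZNF384 replicate 1 the main count was 2158, and without replicate 2 it was 2736. The count of TAF15-ZNF384 against EV was 404 without TAF15-ZNF384 replicate 1, 536 without TAF15-ZNF384 replicate 2, 549 without EV replicate 1 and 686 without EV replicate 2, and that of ZNF384 against EV was 1583 without EV replicate 1 and 1064 without EV replicate 2. Scaling by totals outside the 5 non-coding genes, without TMM, moved the median of all genes by over 0.1, to 0.12, and split 4191 changed genes into 2724 higher and 1467 lower.

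**Figure D1:**
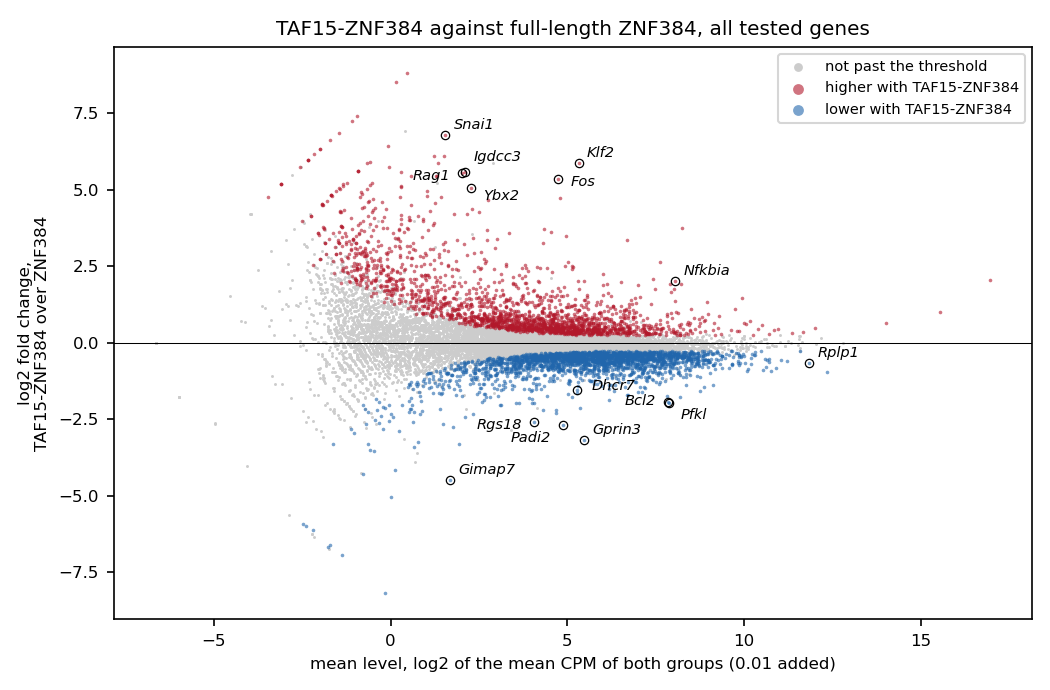
Log2 fold change of TAF15-ZNF384 over ZNF384 (y axis) against the mean level of both groups as log2 CPM (x axis) for the 12970 tested genes, 1 point per gene. Red points (2003) were higher and blue points (2317) lower with TAF15-ZNF384 at an adjusted p under 0.05, and the labelled genes include Klf2 at 5.88 and Gprin3 at -3.17; diagonal rows at the left are genes with few counts.

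The direction of the changes differed by level and by kind of gene. Among genes in the highest quartile of mean level, 12.1% were higher and 36.3% lower with TAF15-ZNF384. In the lowest quartile, 17.1% were higher and 3.54% lower, where the shallower TAF15-ZNF384 libraries held fewer reads per gene. Of 311 tested lincRNA genes, 23.8% were higher and 5.47% lower, with a median log2 fold change of 0.32. Of 561 pseudogenes, 2.67% were higher and 18.5% lower, with a median of -0.37. Protein-coding genes, 10493 in all, were split into 16% higher and 18.9% lower.

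**Figure D2:**
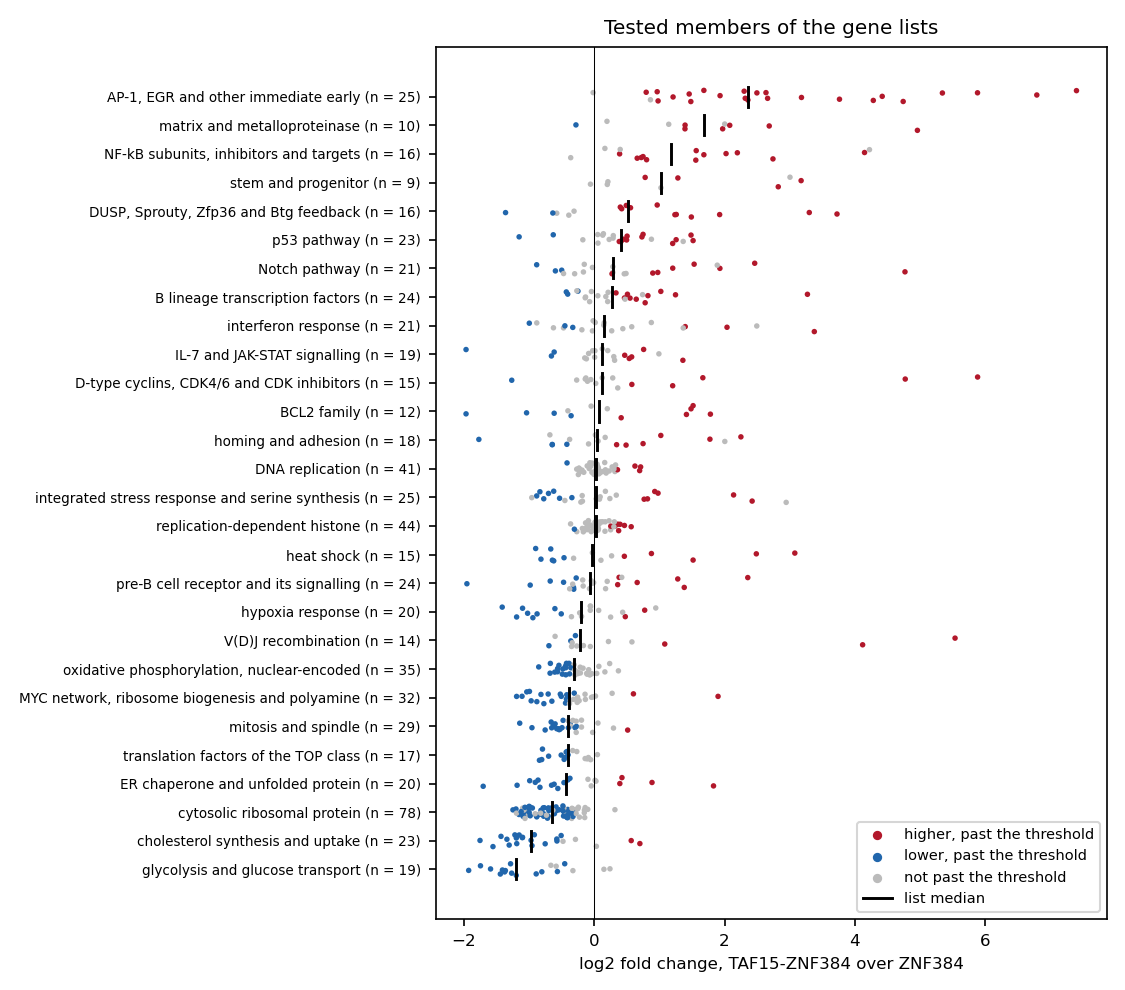
Log2 fold change of TAF15-ZNF384 over ZNF384 (x axis) of the tested members of the gene lists (1 row per list, n members), with the black bar at the list's median. Immediate early genes lie to the right, with a median of 2.36, and genes of glycolysis to the left, with a median of -1.20; spread along the y axis within a row carries no meaning.

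Genes that averaged 5 CPM or more in the higher group were ranked by fold. Those with the largest folds upward were near silent with ZNF384, which a ranking by fold favours. Snai1, a zinc finger repressor (mm9 chr2:167363695-167368314, plus strand), was at 6.09 and 5.39 CPM with TAF15-ZNF384 and 0 and 0.131 CPM with ZNF384, 107 against 3 counts, a ratio of 127 with a counting interval of 42.4 to 626 at 95%. Klf2, a Krüppel-like factor that keeps lymphocytes quiescent (mm9 chr8:74842932-74845555, plus strand), was at 84.8 and 71.6 CPM with TAF15-ZNF384 and 0.871 and 2.05 CPM with ZNF384 (59-fold, adjusted p = 0.000828). The interval covers counting error only. In both genes the ZNF384 libraries lay far below those of TAF15-ZNF384 and also below those of EV, at 4.93 and 8.87 CPM for Snai1 and 31.8 and 65 CPM for Klf2. Atp6v0a1, a subunit of the vacuolar proton pump, was at 7.18 and 4.02 CPM with TAF15-ZNF384, 0.0688 and 0.0874 CPM with ZNF384 and 0.391 and 0.403 CPM with EV (68.7-fold over ZNF384, adjusted p = 5.97e-07). Igdcc3, a membrane protein of the immunoglobulin superfamily (mm9 chr9:64988961-65033664, plus strand), was at 8.48 and 8.25 CPM with TAF15-ZNF384, 0.115 and 0.262 CPM with ZNF384 and 0.156 and 0.0403 CPM with EV (48.5-fold over ZNF384, adjusted p = 9.64e-08). For Igdcc3 ZNF384 and EV lay together and TAF15-ZNF384 above them, and the TCF3-ZNF384 libraries were higher still, at 29.9 and 32.7 CPM. Ybx2, a Y-box RNA-binding protein of germ cells, was at 10.4 and 8.25 CPM with TAF15-ZNF384, 0.252 and 0.306 CPM with ZNF384 and 0.939 and 0.685 CPM with EV (33.7-fold over ZNF384, adjusted p = 9.64e-08). The small GTPase gene Arl4d was at 13.3 and 12.5 CPM against 0.459 and 0.568 CPM (adjusted p = 0.00069), a call lost without ZNF384 replicate 1 (adjusted p = 0.0641), and Ier5l was at 10 and 8.89 CPM against 0.321 and 0.655 CPM (adjusted p = 2.09e-06).

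In the downward direction, at the same minimum level, the largest differences were smaller. Gimap7, a GTPase of the immunity-associated family, was at 0.109 and 0.423 CPM with TAF15-ZNF384, 6.1 and 6.2 CPM with ZNF384 and 1.17 and 1.05 CPM with EV (22.5-fold lower than with ZNF384, adjusted p = 1.4e-05), on 5 against 408 counts. Gprin3 (mm9 chr6:59302455-59376284, minus strand) was at 9.13 and 8.78 CPM with TAF15-ZNF384, 80 and 80.8 CPM with ZNF384 and 53.3 and 44.8 CPM with EV, 8.97-fold lower than with ZNF384 (adjusted p = 9.61e-09). The 3 groups of Gprin3 values did not overlap: EV lay between the proteins, and both differed from it, by -2.45 with TAF15-ZNF384 (adjusted p = 1.14e-07) and by 0.71 with ZNF384 (adjusted p = 0.000319). The same order held for Padi2, which converts arginine in proteins to citrulline, at 7.5 and 8.36, 48.3 and 53.4 and 21.7 and 23.4 CPM in TAF15-ZNF384, ZNF384 and EV libraries (6.4-fold lower than with ZNF384, adjusted p = 7.79e-08). It held as well for Rgs18, a regulator of G protein signalling, at 4.67 and 4.76 CPM with TAF15-ZNF384, 29 and 28.3 CPM with ZNF384 and 13.5 and 14.1 CPM with EV (6.07-fold lower, adjusted p = 1.09e-07). Pydc3, a pyrin domain gene, was 9.8-fold lower, Cox7a1, a subunit of cytochrome c oxidase, 6.77-fold, and Endou, an endoribonuclease, 4.93-fold. Lrrn4, the matricellular protein gene Nov, the adhesion receptor gene Cd2 and Bhlha15, a factor of secretory cells, were 4.05-fold to 4.54-fold lower. The fusions did not always go together. For Nov, TCF3-ZNF384 was at 33.5 and 27.6 CPM, above EV at 18.3 and 19.8 CPM, while TAF15-ZNF384 lay below EV at 6.63 and 7.62 CPM. For Lrrn4 the TCF3-ZNF384 libraries (14.8 and 11.7 CPM) overlapped those of EV (15.05 and 14.2 CPM). For Cd2 and Bhlha15 they lay below EV, as did those of TAF15-ZNF384.

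**Figure D3:**
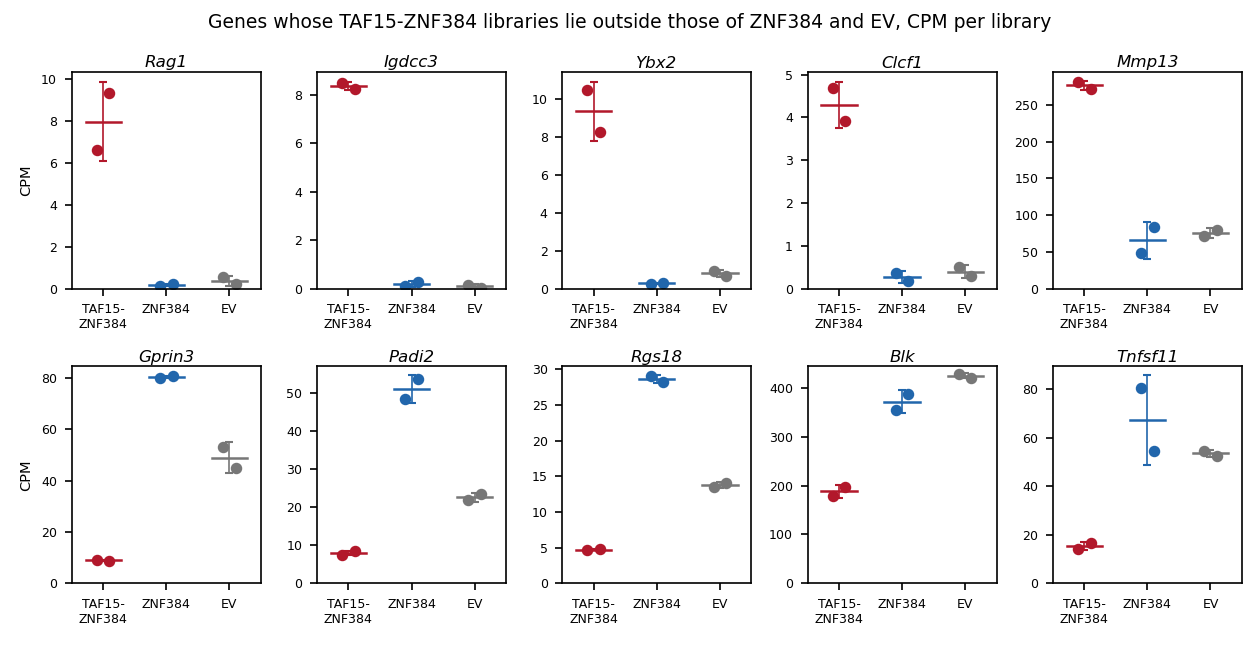
CPM per library (y axis, from 0) for 10 genes in TAF15-ZNF384, ZNF384 and EV libraries; points are the 2 libraries of a group, the horizontal line their mean and the bars the SD. The 10 genes were picked because both TAF15-ZNF384 libraries lie outside the range of the ZNF384 and EV libraries. The TAF15-ZNF384 libraries lie above it in the upper row and below it in the lower row. In these picked genes the TCF3-ZNF384 libraries, not drawn, lie outside it on the same side. Examples are 20.1 and 18.1 CPM for Ybx2 and 4.97 and 5.12 CPM for Gprin3. In Nov and Lrrn4, which are not shown, the TCF3-ZNF384 libraries did not both lie outside it.

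Immediate early genes are switched on within minutes of a stimulus without new protein synthesis, and many encode transcription factors of the AP-1 and EGR families. Of 25 tested members of a list of 27, 23 were higher with TAF15-ZNF384 than with ZNF384 and none was lower, with a median log2 fold change of 2.36. Against EV the same list gave no called member with TAF15-ZNF384 (median 0.11, no call in either direction), and 22 lower and none higher with ZNF384 (median -2.30). Fos, a subunit of AP-1 (mm9 chr12:86814840-86818223, plus strand), was at 56.1 and 47.8 CPM with TAF15-ZNF384, 0.986 and 1.75 CPM with ZNF384 and 29.8 and 60.7 CPM with EV. Egr1, a zinc finger factor, was at 58.6 and 48.5 CPM with TAF15-ZNF384, 1.79 and 2.32 CPM with ZNF384 and 26.4 and 58.7 CPM with EV. In both genes the ZNF384 libraries were the low ones, and the TAF15-ZNF384 values lay inside the wide range of EV. The difference was 40.6-fold for Fos (adjusted p = 0.00131) and 26.8-fold for Egr1 (adjusted p = 0.00455), the second lost without ZNF384 replicate 1 (adjusted p = 0.0799). Maff, a small MAF factor, was at 10.6 and 11.1 CPM with TAF15-ZNF384 and 0.436 and 0.743 CPM with ZNF384 (19.5-fold, adjusted p = 2.63e-06), and Jund, another AP-1 subunit, at 41.2 and 37.8 CPM and 6.81 and 9.31 CPM (4.98-fold, adjusted p = 9.96e-05). Nr4a2, an orphan nuclear receptor, was 2.79-fold higher. Ier3 had no count with ZNF384, and its level with TAF15-ZNF384 was at least 22.6-fold higher than the floor of 3 counts over the group. The 2 members that did not pass were Srf, at -0.02, and Nr4a1, at 0.86.

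Feedback genes encode proteins that limit such responses. Of 16 tested genes of the DUSP, Sprouty, Zfp36 and Btg families, 11 were higher and 2 lower with TAF15-ZNF384, with a median of 0.52. Dusp4, a phosphatase that inactivates MAP kinases, was at 6.42 and 4.23 CPM with TAF15-ZNF384 and 0.596 and 0.437 CPM with ZNF384 (9.85-fold, adjusted p = 1.16e-05). Zfp36 and Zfp36l1, which bind AU-rich messages and promote their decay, were at 249.6 and 218 CPM and 208 and 185 CPM with TAF15-ZNF384, against 87.3 and 109 CPM and 59.6 and 80.9 CPM with ZNF384 (2.39-fold and 2.81-fold, adjusted p = 5.54e-05 and 2.65e-05). The libraries of the 2 groups did not overlap in these genes, as in 31.9% of all tested genes upward and 34.5% downward. The MAP kinase inhibitors Spred1 and Spred2 were lower with TAF15-ZNF384, at -0.64 and -1.36. The count of 11 fell to 7 without TAF15-ZNF384 replicate 1. Against EV the list had 1 higher and 2 lower members with TAF15-ZNF384, and 2 higher and 10 lower with ZNF384.

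NF-kB is a family of factors held in the cytoplasm by inhibitors, whose genes are among its own targets. Of 16 tested members of a list of 21 subunits, inhibitors and targets, 12 were higher with TAF15-ZNF384 and none lower, with a median of 1.18, or 0.80 once genes that did not exceed the floor of 3 counts in either protein's libraries were left aside. Without TAF15-ZNF384 replicate 1 the count was 7. The inhibitor gene Nfkbia (mm9 chr12:56590398-56593634, minus strand) was at 444 and 399 CPM with TAF15-ZNF384, 95.7 and 112 CPM with ZNF384 and 350 and 399.7 CPM with EV. The subunit gene Nfkb2 (mm9 chr19:46379227-46386580, plus strand) was at 24.5 and 20.9 CPM with TAF15-ZNF384, 4.95 and 4.94 CPM with ZNF384 and 14.8 and 17.3 CPM with EV. In both, every ZNF384 library lay below every library of the other groups. The difference was 4.07-fold for Nfkbia (adjusted p = 3.71e-07) and 4.58-fold for Nfkb2 (adjusted p = 3.11e-07). Relb, another subunit, was at 12.3 and 9.31 CPM with TAF15-ZNF384 and 1.31 and 2.05 CPM with ZNF384 (6.7-fold, adjusted p = 3.05e-06), and the inhibitor gene Nfkbie at 29.8 and 22.7 CPM and 8.57 and 9.31 CPM (2.95-fold, adjusted p = 4.4e-06). Against EV, 3 members were higher and 1 lower with TAF15-ZNF384, among them Nfkb2 at 0.50 (adjusted p = 0.0266), and 10 were lower and none higher with ZNF384.

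The promoters of these 2 genes show what the searched NF-kB site looks like in place. Windows ran from 250 bases before to 50 bases after each transcript start in RefSeq annotation of GRCm38.p6, and both strands were searched. The site was found in 9 of 19 windows of the NF-kB list (47.4%), in 6.93% of all 32851 windows and in 8.13% of windows of tested genes. Genes higher by 2-fold or more held it in 11.8% of windows, and genes lower by 2-fold or more in 6.04%. Both sequences are printed on the strand of the gene, with the matches in capitals, and were picked because they hold matches. In Nfkb2, shown by 1 of its 3 windows, 2 of 3 matches overlap.
Nfkbia promoter, GRCm38.p6 chr12:55492598-55492897, minus strand: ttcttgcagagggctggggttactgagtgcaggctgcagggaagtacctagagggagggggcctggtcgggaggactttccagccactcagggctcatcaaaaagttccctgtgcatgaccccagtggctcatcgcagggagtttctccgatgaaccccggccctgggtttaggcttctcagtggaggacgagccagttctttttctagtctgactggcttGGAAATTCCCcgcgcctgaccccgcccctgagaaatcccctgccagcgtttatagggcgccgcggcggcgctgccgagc
Nfkb2 promoter, GRCm38.p6 chr19:46304487-46304786, plus strand: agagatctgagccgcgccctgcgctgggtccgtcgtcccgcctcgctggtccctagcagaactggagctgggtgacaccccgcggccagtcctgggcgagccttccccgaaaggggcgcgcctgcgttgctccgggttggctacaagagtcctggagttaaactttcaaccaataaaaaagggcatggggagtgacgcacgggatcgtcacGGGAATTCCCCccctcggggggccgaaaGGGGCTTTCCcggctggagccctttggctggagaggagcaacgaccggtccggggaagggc
A match is a run of letters and not a measured binding site. The CArG box, the site of serum response factor at many immediate early genes, was found in 5 of 31 windows of the immediate early list (16.1%), against 1.63% of all windows and 1.24% of windows of tested genes.

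**Figure D4:**
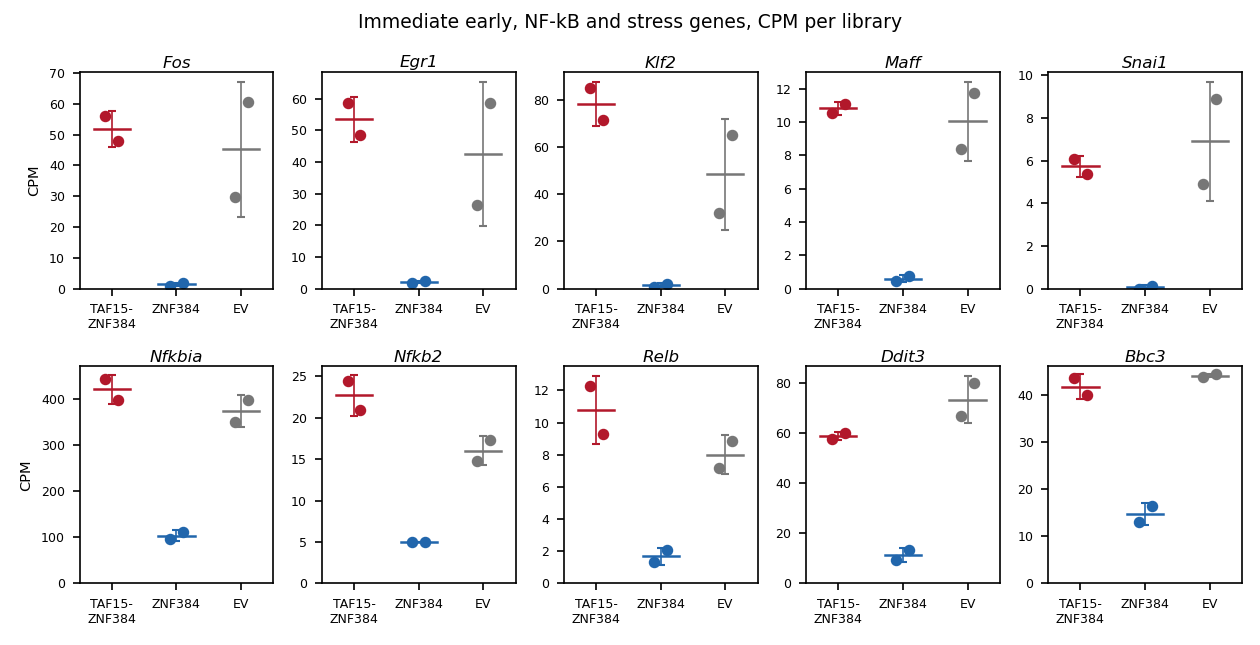
CPM per library (y axis, from 0) for 10 immediate early, NF-kB, stress and cell death genes in TAF15-ZNF384, ZNF384 and EV libraries; points are the 2 libraries of a group, the horizontal line their mean and the bars the SD. In each of these selected genes both ZNF384 libraries lie below all libraries of the other 2 groups, which is not a count over the lists. The EV replicates differ widely for Fos, Egr1 and Klf2.

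Stress genes did not move as a block. Of 15 tested heat shock genes, 5 were higher and 6 lower with TAF15-ZNF384, with a median of -0.03 that turned to 0.11 under scaling by totals. Among the higher members were inducible ones: Hspa1b was at 4.13 and 3.7 CPM with TAF15-ZNF384 and 0.527 and 0.349 CPM with ZNF384 (8.45-fold, adjusted p = 2.49e-05), and Hspa1a was 5.61-fold higher. These copies are nearly identical, so the split of reads between them is uncertain. The co-chaperone gene Dnajb1 was at 50.6 and 46.4 CPM against 26.5 and 26.3 CPM (1.84-fold, adjusted p = 0.000283). Lower members included chaperones that are abundant without stress, with Hsp90ab1 at 1433 and 1346 CPM with TAF15-ZNF384 and 2654 and 2242 CPM with ZNF384 (-0.82, adjusted p = 0.000115) and the Hsp70 relative Hspa4 at -0.67. The 6 lower members became 3 without TAF15-ZNF384 replicate 1.

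In the integrated stress response, a programme that ATF4 directs when translation slows, the 25 tested genes were split into 6 higher and 7 lower with TAF15-ZNF384, with 3 higher without TAF15-ZNF384 replicate 1 or ZNF384 replicate 1. Regulators were among the higher genes: Ddit3, the CHOP factor, was at 57.6 and 60 CPM with TAF15-ZNF384, 9.17 and 13.1 CPM with ZNF384 and 66.5 and 79.9 CPM with EV (5.37-fold over ZNF384, adjusted p = 3.71e-07). Sesn2, an inhibitor of mTORC1, was 1.9-fold higher (adjusted p = 0.00404), and Ppp1r15a, which reverses the response, 4.4-fold (adjusted p = 0.00456, and 0.0941 without ZNF384 replicate 1). Enzymes that make serine and proline were among the lower genes. Phgdh was at 227 and 262 CPM with TAF15-ZNF384, 473 and 399 CPM with ZNF384 and 453 and 437 CPM with EV (1.78-fold lower than with ZNF384, adjusted p = 8.05e-05), and Psat1, Pycr1 and Aldh18a1 were 1.63-fold, 1.84-fold and 1.71-fold lower. Against the EV libraries that both comparisons share, 17 of the 25 genes were lower and none higher with TAF15-ZNF384 (median -0.75), and 17 were lower and none higher with ZNF384 (median -0.78). Ddit3 was at -0.32 against EV with TAF15-ZNF384 and -2.74 with ZNF384, and Phgdh at -0.86 and -0.03. Between TAF15-ZNF384 and ZNF384, 52% of the 25 genes were called, against 33.3% of all tested genes.

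Chaperones and folding enzymes of the endoplasmic reticulum were mostly lower with TAF15-ZNF384, 12 of 20 against 4 higher, with a median of -0.43. The 4 higher became 1 without TAF15-ZNF384 replicate 1, 2 without TAF15-ZNF384 replicate 2 and 1 without ZNF384 replicate 1. Sdf2l1, a co-chaperone, was at 47.1 and 50.9 CPM with TAF15-ZNF384, 186 and 132 CPM with ZNF384 and 88.5 and 89.4 CPM with EV, so that the proteins lay on either side of EV (3.26-fold lower than with ZNF384, adjusted p = 1.85e-06). The disulfide isomerase gene Pdia4 was at 102 and 104 CPM against 258 and 209 CPM (2.27-fold lower, adjusted p = 4.72e-06), and Hyou1 and Canx, 2 more chaperones, were 1.82-fold and 1.78-fold lower. Dnajb9 was the exception with the smallest adjusted p (3.56-fold higher, adjusted p = 2.49e-05). It was at 45.7 and 48.3 CPM with TAF15-ZNF384 and 13.5 and 12.9 CPM with ZNF384. Hspa5, Herpud1 and Syvn1 were the other higher members, and each lost its call when some single libraries were left out. Hspa5 was at 0.81 without TAF15-ZNF384 replicate 1 and 1.05 without ZNF384 replicate 1. Against EV the list had 6 lower members and none higher with TAF15-ZNF384, and 8 higher and 3 lower with ZNF384.

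The p53 pathway arrests or kills cells after DNA damage and other stress. Of its 23 tested genes, 11 were higher and 2 lower with TAF15-ZNF384, with a median of 0.41. Without TAF15-ZNF384 replicate 1, 7 were higher and 1 lower, and 7 were higher after thinning. Bbc3, which encodes the death-promoting protein PUMA (mm9 chr7:16894965-16903554, plus strand), was at 43.6 and 39.9 CPM with TAF15-ZNF384, 13.1 and 16.3 CPM with ZNF384 and 43.8 and 44.3 CPM with EV (2.86-fold over ZNF384, adjusted p = 3e-06). Cdkn1a, the inhibitor p21, was at 49.6 and 45.8 CPM with TAF15-ZNF384, 18.7 and 22.9 CPM with ZNF384 and 34.1 and 38.1 CPM with EV (2.3-fold over ZNF384, adjusted p = 1.06e-05). The ZNF384 libraries were the lowest for both genes. Ccng1 was 1.68-fold higher, and Tigar, which diverts sugar from glycolysis, 2.22-fold lower (adjusted p = 0.000428).

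In the BCL2 family, which sets the threshold of cell death at mitochondria, 5 of 12 tested members were higher and 4 lower. Bcl2, the survival protein (mm9 chr1:108434755-108610851, minus strand), was at 90.8 and 99.1 CPM with TAF15-ZNF384, 354 and 389 CPM with ZNF384 and 176 and 153 CPM with EV. It was 3.91-fold lower with TAF15-ZNF384 than with ZNF384 (adjusted p = 9.64e-08), with the proteins on either side of EV, at -0.79 (adjusted p = 0.000364) and 1.18 (adjusted p = 7.66e-06). The death-promoting members Bcl2l11 (BIM) and Pmaip1 (NOXA) were 2.67-fold and 2.8-fold higher (adjusted p = 5.45e-05 and 0.000216). Bid, which links death receptors to mitochondria, was at 4.13 and 6.03 CPM against 10.9 and 9.96 CPM (2.05-fold lower, adjusted p = 0.00171). Without TAF15-ZNF384 replicate 2, 3 members were higher and 2 lower.

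Among interferon response genes, 3 of 21 tested were higher and 3 lower, shares no larger than the 15.4% and 17.9% of all tested genes, and 1 was lower without TAF15-ZNF384 replicate 1 or 2. Irf7, the factor that drives type I interferon genes, was at 6.52 and 6.98 CPM with TAF15-ZNF384, 0.665 and 0.612 CPM with ZNF384 and 5.12 and 6.65 CPM with EV (10.4-fold over ZNF384, adjusted p = 1.85e-06). Irf1 was at 66.5 and 61.7 CPM with TAF15-ZNF384 and 23.7 and 25 CPM with ZNF384 (2.63-fold, adjusted p = 1.8e-05), and the antiviral gene Rsad2 lost its call without TAF15-ZNF384 replicate 2 (adjusted p = 0.236) or ZNF384 replicate 1 (adjusted p = 0.0526). The antiviral effector Ifit2 was at -0.33, with a call lost under 7 other settings, among them leaving out TAF15-ZNF384 replicate 1, TAF15-ZNF384 replicate 2 or ZNF384 replicate 1 (adjusted p = 0.0533, 0.213 and 0.152).

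The Notch pathway passes signals between neighbouring cells through membrane ligands, and 8 of its 21 tested genes were higher and 3 lower, with 4 higher without TAF15-ZNF384 replicate 1 and 5 without replicate 2 or after thinning. The ligand gene Dll1 was at 5.76 and 4.55 CPM with TAF15-ZNF384, 0.138 and 0.262 CPM with ZNF384 and 3.79 and 6.69 CPM with EV (27.3-fold over ZNF384, adjusted p = 1.76e-05). Dll4, another ligand, was at 10.1 and 9.41 CPM against 1.1 and 2.71 CPM (5.51-fold, adjusted p = 0.0017). The target genes differed in where EV lay: Nrarp was at 34.6 and 35.3 CPM with TAF15-ZNF384, 11.4 and 12.8 CPM with ZNF384 and 28.9 and 39.1 CPM with EV, while Hes1 was at 105 and 115 CPM with TAF15-ZNF384, 53.3 and 42.1 CPM with ZNF384 and 52.4 and 61.7 CPM with EV. For Nrarp the ZNF384 libraries lay below both other groups, and for Hes1 the TAF15-ZNF384 libraries lay above both, as did TCF3-ZNF384 at 103 and 114 CPM (adjusted p = 1.54e-05 and 1.47e-05 between the proteins). The receptor gene Notch2 was 1.84-fold lower (adjusted p = 4.25e-05). Of the 21 tested genes of the pathway, 52.4% were called. Of all tested genes 33.3% were, 15.4% higher and 17.9% lower.

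Glycolysis splits glucose to pyruvate in the cytosol. Of 19 tested genes of 22, 14 were lower with TAF15-ZNF384 and none was higher, with a median log2 fold change of -1.20. Against EV, 4 were lower and none higher with TAF15-ZNF384 (median -0.20), and 13 were higher and none lower with ZNF384 (median 0.77). Pfkl, a phosphofructokinase that sets the pace of the pathway (mm9 chr10:77449692-77472828, minus strand), was at 92.7 and 99.7 CPM with TAF15-ZNF384, 328 and 404 CPM with ZNF384 and 102 and 102 CPM with EV. Pgk1, phosphoglycerate kinase (mm9 chrX:103382439-103399038, plus strand), was at 100.2 and 107 CPM with TAF15-ZNF384, 303 and 393 CPM with ZNF384 and 157 and 149.8 CPM with EV. In both genes the ZNF384 libraries lay above every other library of these groups. The difference was 3.8-fold for Pfkl (adjusted p = 1.42e-07) and 3.35-fold for Pgk1 (adjusted p = 5.27e-07). Eno1, an enolase, was at 32.7 and 36.4 CPM with TAF15-ZNF384 and 84.7 and 99.1 CPM with ZNF384 (2.65-fold lower, adjusted p = 2.55e-06), and Pfkp, a second phosphofructokinase, at 42.3 and 42.5 CPM and 97.6 and 121 CPM (2.57-fold lower, adjusted p = 2.3e-06). Several glycolysis genes have processed copies in the genome, and how reads were shared among the copies is uncertain.

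In the hypoxia response, 8 of 20 tested genes were lower and 2 higher with TAF15-ZNF384 (50% called, against 33.3% of all tested genes). After thinning, 5 were lower. Without TAF15-ZNF384 replicate 1, TAF15-ZNF384 replicate 2 or ZNF384 replicate 1, 1 was higher. Bnip3, which acts in the removal of mitochondria, was at 37.4 and 39.9 CPM with TAF15-ZNF384, 70.5 and 86.8 CPM with ZNF384 and 27 and 24.9 CPM with EV. It was 2.03-fold lower with TAF15-ZNF384 than with ZNF384 (adjusted p = 2.93e-05) and above EV with both proteins, at 0.57 (adjusted p = 0.008) and 1.60 (adjusted p = 1.79e-06). Mif, a cytokine, was 2.14-fold lower (adjusted p = 3.49e-06), Narf 1.92-fold and Fam162a 2.28-fold. Bhlhe40, a repressor that also answers to other stimuli, was at 102 and 88.1 CPM with TAF15-ZNF384, 50.6 and 60.9 CPM with ZNF384 and 166 and 187 CPM with EV, and thus higher than with ZNF384 (1.71-fold, adjusted p = 0.000367) and lower than with EV.

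The core of the hypoxia response element, ACGTG, was found on either strand in 16 of 33 promoter windows of the glycolysis list (48.5%) and 15 of 26 of the hypoxia list (57.7%), against 19.6% of all windows and 25.3% of windows of tested genes. It overlaps the E box, CANNTG, where that reads CACGTG. Genes lower by 2-fold or more held the core in 23.0% of windows and genes higher by 2-fold or more in 18.8%. The 2 promoters shown, on the strand of the gene with matches in capitals, were picked because they hold matches. In Bnip3 the matches on the 2 strands overlap.
Pgk1 promoter, GRCm38.p6 chrX:106186850-106187149, plus strand: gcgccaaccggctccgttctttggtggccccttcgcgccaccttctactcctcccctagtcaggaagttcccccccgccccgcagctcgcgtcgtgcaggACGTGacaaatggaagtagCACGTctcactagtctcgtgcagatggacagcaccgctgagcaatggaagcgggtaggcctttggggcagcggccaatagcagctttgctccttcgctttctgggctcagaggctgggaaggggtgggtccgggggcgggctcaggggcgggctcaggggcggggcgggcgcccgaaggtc
Bnip3 promoter, GRCm38.p6 chr7:138909457-138909756, minus strand: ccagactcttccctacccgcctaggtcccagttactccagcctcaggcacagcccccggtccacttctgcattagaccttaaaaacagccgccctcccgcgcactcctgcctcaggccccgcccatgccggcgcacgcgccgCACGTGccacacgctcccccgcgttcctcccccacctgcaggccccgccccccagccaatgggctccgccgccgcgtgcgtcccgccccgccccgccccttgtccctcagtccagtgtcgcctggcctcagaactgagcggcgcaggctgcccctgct

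**Figure D5:**
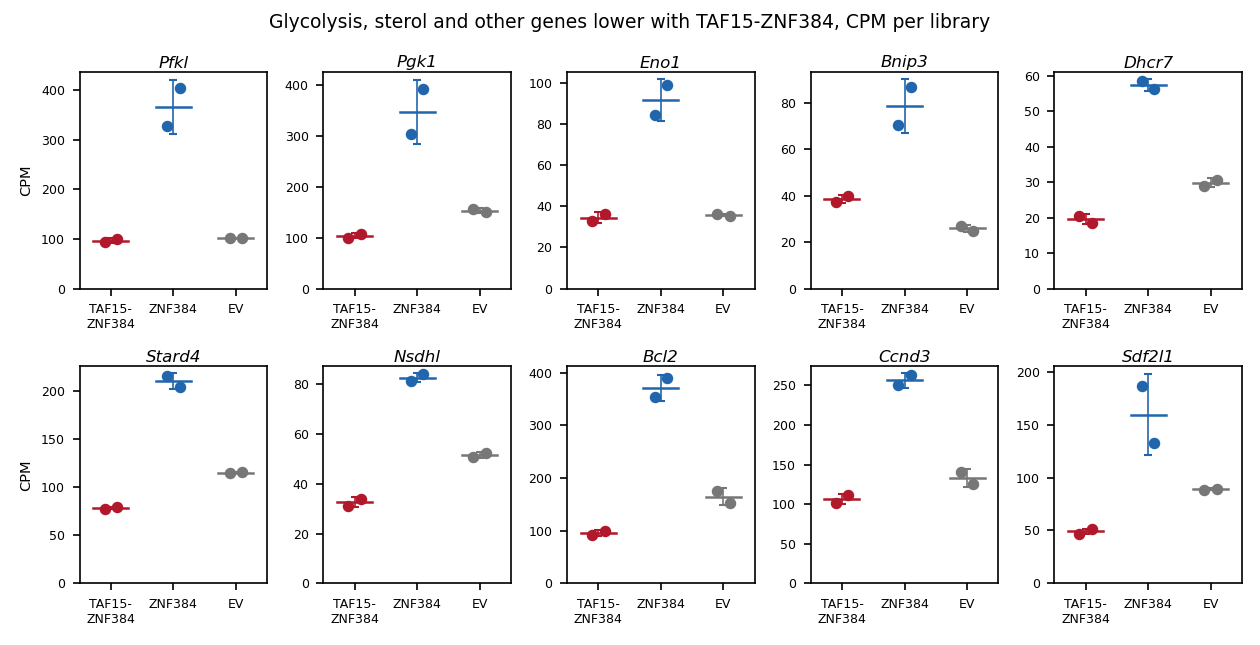
CPM per library (y axis, from 0) for 10 genes of glycolysis, hypoxia, sterol synthesis and transport, survival, cell cycle and protein folding in TAF15-ZNF384, ZNF384 and EV libraries; points are the 2 libraries of a group, the horizontal line their mean and the bars the SD. In each of these selected genes both ZNF384 libraries lie above all libraries of the other 2 groups, which is not a count over the lists.

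Cholesterol synthesis gave a like picture. Of 23 tested genes, 18 were lower and 2 higher with TAF15-ZNF384, with a median of -0.97. Dhcr7, which makes cholesterol from its last precursor (mm9 chr7:151009050-151034315, plus strand), was at 20.6 and 18.6 CPM with TAF15-ZNF384, 58.7 and 56.2 CPM with ZNF384 and 29 and 30.8 CPM with EV (2.94-fold lower than with ZNF384, adjusted p = 8.14e-07). The groups did not overlap, with TAF15-ZNF384 lowest. Stard4, a carrier of cholesterol between membranes, was at 77.2 and 78.8 CPM with TAF15-ZNF384, 216 and 205 CPM with ZNF384 and 115 and 115 CPM with EV (2.69-fold lower, adjusted p = 3.27e-07), in the same order. Nsdhl, which acts in the removal of methyl groups from the sterol ring, was 2.53-fold lower (adjusted p = 1.66e-06). Without ZNF384 replicate 2 the median of the glycolysis list was -0.81 and that of the cholesterol list -0.95. The exceptions were Mvk, mevalonate kinase, at 0.70 and Tm7sf2, a sterol reductase, at 0.57, with adjusted p = 0.188 for Mvk without TAF15-ZNF384 replicate 2, 0.167 for Tm7sf2 without TAF15-ZNF384 replicate 1, and 0.0579 for Mvk and 0.0710 for Tm7sf2 without ZNF384 replicate 1. Against EV, 4 members were lower and none higher with TAF15-ZNF384 (median -0.18), and 17 were higher and none lower with ZNF384 (median 0.70).

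Of all tested genes 17.9% were lower with TAF15-ZNF384, and of those in the highest quartile of mean level 36.3%. Of 78 cytosolic ribosomal protein genes, 52 were lower with TAF15-ZNF384 (66.7%) and none higher, with a median of -0.65. The count was 22 without TAF15-ZNF384 replicate 1 and 31 without replicate 2. Rplp1, a protein of the ribosomal stalk (mm9 chr9:61761091-61762345, minus strand), was at 2714 and 3008 CPM with TAF15-ZNF384, 4498 and 4513 CPM with ZNF384 and 4242 and 4033 CPM with EV (1.57-fold lower than with ZNF384, adjusted p = 0.000197). Rps15a was at 609.6 and 620.4 CPM with TAF15-ZNF384, 1019 and 972 CPM with ZNF384 and 893 and 897 CPM with EV (1.62-fold lower, adjusted p = 6.89e-05). In both genes the TAF15-ZNF384 libraries lay below those of ZNF384 and EV, as did the TCF3-ZNF384 libraries, at 2715 and 2649 CPM for Rplp1 and 632 and 642 CPM for Rps15a. Against EV the list had 48 lower members and none higher with TAF15-ZNF384 (median -0.78), and 2 higher and 1 lower with ZNF384 (median -0.11). Ribosomal protein genes have many processed copies, and how reads were shared among them is uncertain. Of 17 translation factors whose messages carry the same 5′ terminal signal (the TOP class), 10 were lower and none higher, among them the elongation factor genes Eef1g (1.75-fold, adjusted p = 6.59e-05) and Eef1a1 (1.79-fold, adjusted p = 0.000509).

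Genes of cell growth were lower in part. In the list of the MYC network, ribosome biogenesis and polyamine synthesis, 17 of 32 were lower and 2 higher, with a median of -0.39, and 11 were lower without TAF15-ZNF384 replicate 1. Myc itself was at 60.5 and 59 CPM with TAF15-ZNF384, 123 and 115 CPM with ZNF384 and 87.8 and 78.7 CPM with EV, without overlap between the 3 groups (1.99-fold lower than with ZNF384, adjusted p = 1.25e-05). Its antagonist Mxd1 was at 111 and 92.6 CPM with TAF15-ZNF384, 23.2 and 31.6 CPM with ZNF384 and 116 and 143 CPM with EV (3.73-fold higher than with ZNF384, adjusted p = 4.56e-06). Srm, which makes spermidine, was 2.15-fold lower, Polr1b, a subunit of RNA polymerase I, 2.05-fold and Rrp1b 2.28-fold. Of 35 nuclear-encoded genes of oxidative phosphorylation, 16 were lower and none higher (45.7% called, median -0.31). Of all genes in the highest quartile of mean level, 36.3% were lower. The list median was -0.29 without TAF15-ZNF384 replicate 1. Under scaling by totals it was -0.17, with 11 lower and 1 higher. Sdha of complex II was at 385 and 359 CPM with TAF15-ZNF384 and 658 and 532 CPM with ZNF384 (1.6-fold lower, adjusted p = 0.00059).

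Cell cycle genes were counted by phase. Of all tested genes, 15.4% were higher and 17.9% lower, or 33.3% called. The share called was 65.5% in the mitosis list, and 12.2% and 18.2% in the replication and histone lists, below that of all genes. Of 29 mitosis and spindle genes, 18 were lower and 1 higher with TAF15-ZNF384 (median -0.40), whereas of 41 DNA replication genes 4 were higher and 1 lower (median 0.03). The mitotic ubiquitin enzyme gene Ube2c was at 86.5 and 105 CPM with TAF15-ZNF384, 246 and 177 CPM with ZNF384 and 130 and 119 CPM with EV (2.21-fold lower than with ZNF384, adjusted p = 0.00024), and the cyclin gene Ccnb2 at 91.5 and 99.1 CPM, 207 and 162 CPM and 136 and 114 CPM in that order (1.94-fold lower, adjusted p = 0.000131). The ZNF384 libraries differed from each other here, with replicate 1 the higher. The 18 lower mitosis genes became 8 without TAF15-ZNF384 replicate 1, 10 without TAF15-ZNF384 replicate 2 and 9 without ZNF384 replicate 1. The 4 higher replication genes became 14 without ZNF384 replicate 1 and 2 without TAF15-ZNF384 replicate 2, and 12 were lower without ZNF384 replicate 2. Pcna, the sliding clamp of DNA polymerases, was at 155 and 152 CPM with TAF15-ZNF384 and 107 and 82.4 CPM with ZNF384 (1.62-fold higher, adjusted p = 0.00162), and E2f1, a factor that switches on S phase genes, at 24.9 and 24.8 CPM and 15.9 and 14.3 CPM (1.64-fold higher, adjusted p = 0.000778). Of 44 tested histone genes, whose family members share sequence, 7 were higher and 1 lower, with 2 and 1 higher without TAF15-ZNF384 replicate 1 and 2 and 15 under scaling by totals, and 6 lower without ZNF384 replicate 2.

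The regulators of cell cycle entry moved by single genes. Ccnd3, the D-type cyclin that pre-B cells need to divide (mm9 chr17:47642000-47736632, plus strand), was at 102 and 111 CPM with TAF15-ZNF384, 250 and 263 CPM with ZNF384 and 141 and 125 CPM with EV (2.4-fold lower than with ZNF384, adjusted p = 1.59e-06). The inhibitor gene Cdkn2b was at 9.24 and 8.99 CPM with TAF15-ZNF384, 2.59 and 3.23 CPM with ZNF384 and 4.58 and 5.69 CPM with EV (3.17-fold over ZNF384, adjusted p = 9.9e-05). Rb1 was at 173 and 173 CPM against 117 and 115 CPM (1.49-fold, adjusted p = 0.000428), and Cdkn1c at 2.61 and 2.01 CPM against 0.0229 and 0.175 CPM, on 43 and 5 counts (adjusted p = 0.000227). In all, 5 of the 15 listed genes were higher and 1 lower with TAF15-ZNF384 (40% called, against 33.3% of all tested genes).

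The V(D)J recombinase, which cuts and joins the immunoglobulin gene segments, was higher with TAF15-ZNF384 than with ZNF384. Rag1 (mm9 chr2:101478439-101489658, minus strand) was at 6.63 and 9.31 CPM with TAF15-ZNF384, 0.138 and 0.218 CPM with ZNF384 and 0.547 and 0.202 CPM with EV. Rag2, its partner, was at 1.96 and 1.38 CPM with TAF15-ZNF384, 0.0917 and 0.0874 CPM with ZNF384 and 0.156 and 0.0403 CPM with EV. In both genes the TAF15-ZNF384 libraries were above every ZNF384 and EV library. The TCF3-ZNF384 libraries were above them too, at 67.6 and 55.1 CPM for Rag1, where they exceeded TAF15-ZNF384 as well, and 1.1 and 1.13 CPM for Rag2. The difference from ZNF384 was 46.5-fold for Rag1 (adjusted p = 3.11e-07) and 17.4-fold for Rag2 (adjusted p = 0.000673), the second on 31 against 6 counts. Of the 14 genes in the list, the recombinase and the joining factors together, 3 were higher and 3 lower. Of the list, 42.9% was called, against 33.3% of all tested genes. The lower calls of Prkdc (-0.29) and Dclre1c (-0.36) were lost with only the groups compared and under scaling by totals. The Ku subunits were split, with Xrcc6 at 134 and 130.4 CPM with TAF15-ZNF384 and 54.4 and 70.9 CPM with ZNF384 (2.12-fold higher, adjusted p = 2.28e-05) and Xrcc5 at 95 and 102 CPM and 178 and 141 CPM (1.62-fold lower, adjusted p = 0.000633). Without ZNF384 replicate 2, 5 members were higher, and without TAF15-ZNF384 replicate 1 or 2, 1 was lower.

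The pre-B cell receptor and its signalling genes gave 6 higher and 7 lower of 24 tested (54.2% called, against 33.3% of all tested genes). The sign of their median (-0.06) turned under scaling by totals (0.08). Blnk, the adaptor downstream of the receptor, was at 95.8 and 84 CPM with TAF15-ZNF384, 23.8 and 46 CPM with ZNF384 and 40.4 and 43.4 CPM with EV (2.61-fold over ZNF384, adjusted p = 0.00952, and 0.0502 without TAF15-ZNF384 replicate 1). The SRC family kinase gene Blk was at 178 and 198 CPM with TAF15-ZNF384, 355 and 388 CPM with ZNF384 and 429 and 421 CPM with EV (1.98-fold lower than with ZNF384, adjusted p = 1.52e-05). The inhibitory receptors moved apart, with Cd72 at 70.8 and 60.5 CPM with TAF15-ZNF384 and 22.4 and 32 CPM with ZNF384 (2.43-fold higher, adjusted p = 6.64e-05) and Cd22 at 5.33 and 4.76 CPM and 17.4 and 21.9 CPM (3.87-fold lower, adjusted p = 2.65e-05). Vpreb2, a surrogate light chain gene with a near copy in Vpreb1, was 1.6-fold lower (adjusted p = 0.00158). Without TAF15-ZNF384 replicate 1 or 2, 2 members were higher.

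Of 24 tested transcription factors of the B lineage, 10 were higher and 3 lower with TAF15-ZNF384, with a median of 0.27. Without TAF15-ZNF384 replicate 1, 7 were higher and 1 lower, with a median of 0.17. Bach2, which restrains plasma cell fate, was at 554 and 489 CPM with TAF15-ZNF384, 326 and 341 CPM with ZNF384 and 406 and 369 CPM with EV (1.56-fold over ZNF384, adjusted p = 0.000378). Bcl6, the repressor of the germinal centre that also protects pre-B cells, was at 32.1 and 29.4 CPM with TAF15-ZNF384, 13.9 and 16.6 CPM with ZNF384 and 34.7 and 39.3 CPM with EV (2.03-fold, adjusted p = 5.31e-05). Irf4 was at 314 and 318 CPM with TAF15-ZNF384, 161 and 196 CPM with ZNF384 and 304 and 328 CPM with EV (1.77-fold, adjusted p = 0.000105). For Bcl6 and Irf4 the ZNF384 libraries were the low ones. Id2, an inhibitor of E proteins such as TCF3, was 2.38-fold higher with TAF15-ZNF384 than with ZNF384 (adjusted p = 2.76e-05) and above EV as well, at 0.81 (adjusted p = 0.00231). Runx1 was 1.34-fold lower (adjusted p = 0.004).

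Receptors and ligands at the cell surface differed gene by gene. The share called was 42.1% in the interleukin-7 and JAK-STAT list and 55.6% in the homing and adhesion list. It was 33.3% of all tested genes. Il2ra, the alpha chain of the interleukin-2 receptor, was at 36.5 and 29.8 CPM with TAF15-ZNF384, 10.7 and 15.5 CPM with ZNF384 and 14.5 and 8.79 CPM with EV (2.57-fold over ZNF384, adjusted p = 0.00398, and 0.0524 without ZNF384 replicate 1). Socs2, an inhibitor of JAK-STAT signals, was 1.58-fold lower (adjusted p = 0.000168); the interleukin-7 and JAK-STAT list gave 5 higher and 3 lower of 19, with 1 higher without TAF15-ZNF384 replicate 1, 2 without replicate 2, 0 without ZNF384 replicate 1 and 8 without ZNF384 replicate 2. Among homing receptors, the chemokine receptor gene Cxcr4 was at 161 and 166 CPM with TAF15-ZNF384, 75.3 and 85.7 CPM with ZNF384 and 139 and 151 CPM with EV (2.03-fold over ZNF384, adjusted p = 7.79e-06). The ZNF384 libraries were the low ones for Cxcr4. Ly6d, a marker of committed B progenitors, was 4.76-fold higher and Cd38, an ectoenzyme, 3.42-fold (adjusted p = 0.000472 and 9.62e-05); 6 of 18 listed homing and adhesion genes were higher and 4 lower, with 3 higher without TAF15-ZNF384 replicate 1. Tnfsf11, the ligand RANKL, was at 14.1 and 16.6 CPM with TAF15-ZNF384, 80.4 and 54.4 CPM with ZNF384 and 54.6 and 52.7 CPM with EV (4.4-fold lower than with ZNF384, adjusted p = 1.49e-05).

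Few genes linked to ZNF384-rearranged leukaemia were expressed. Of 11 listed, 4 passed the filter on low counts, which lets a gene through when a single group expresses it, so the share called says nothing of the list. Flt3, a receptor kinase of progenitors (mm9 chr5:148142317-148212065, minus strand), was at 4.35 and 4.65 CPM with TAF15-ZNF384, 0.642 and 0.612 CPM with ZNF384 and 2.23 and 2.86 CPM with EV (7.08-fold over ZNF384, adjusted p = 4.55e-06). The cytokine gene Clcf1 was at 4.67 and 3.91 CPM with TAF15-ZNF384, 0.367 and 0.175 CPM with ZNF384 and 0.508 and 0.282 CPM with EV (14.3-fold over ZNF384, adjusted p = 2.87e-05). The ZNF384 libraries were the lowest for Flt3, and for Clcf1 the TAF15-ZNF384 libraries lay above both other groups, as did TCF3-ZNF384 at 5.71 and 10.4 CPM. The myeloid and stem cell genes Cd33, Anpep, Kit, Cd34 and Csf3r had at most 2 counts in any library. Gfi1b, a repressor of the erythroid and megakaryocyte lineages and the progenitor pool, was at 145 and 157 CPM with TAF15-ZNF384, 56.8 and 67.5 CPM with ZNF384 and 80.9 and 75.3 CPM with EV (2.44-fold over ZNF384, adjusted p = 2.09e-06), with TCF3-ZNF384 at 126 and 124 CPM. Erythroid and megakaryocyte markers summed to 6.63 and 5.39 CPM with TAF15-ZNF384, 3.77 and 3.93 CPM with TCF3-ZNF384 and 3.99 and 4.76 CPM with EV. A link of Gfi1b to that sum was not tested.

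Some genes of the extracellular matrix were higher with TAF15-ZNF384 than with ZNF384 or EV. Mmp13, a collagenase (mm9 chr9:7272514-7283333, plus strand), was at 281 and 272 CPM with TAF15-ZNF384, 48.1 and 83.5 CPM with ZNF384 and 71 and 80.2 CPM with EV (4.23-fold over ZNF384, adjusted p = 0.00024). The laminin chain gene Lama5 was at 9.35 and 8.25 CPM with TAF15-ZNF384, 1.88 and 2.71 CPM with ZNF384 and 3.05 and 2.38 CPM with EV (3.92-fold, adjusted p = 4.64e-05), and Agrn, which encodes agrin, at 8.05 and 8.78 CPM, 2.54 and 4.02 CPM and 3.01 and 3.63 CPM in that order (2.63-fold, adjusted p = 0.000966). In these 3 genes ZNF384 and EV lay together, and the TCF3-ZNF384 libraries lay above both, at 275 and 275 CPM, 5.89 and 5.65 CPM and 5.62 and 4.2 CPM in the same order of genes. Of 20 listed matrix genes, 10 passed the filter on low counts.

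A run of 6 adenines, the kind of sequence that ZNF384 is known to bind, was found on either strand in 15.2% of the promoter windows of genes higher by 2-fold or more with TAF15-ZNF384 and in 21.1% of those of genes lower by 2-fold or more. It was found in 14.0% of windows of all tested genes and in 19.2% of all windows. The search matched 577 of 844 higher genes and 204 of 323 lower ones. Such runs are common, and no binding was measured in these libraries.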

How the data were processed

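RNA-seq was done on 8 libraries in 4 groups of 2. The authors deposited 1 table of raw counts per gene, made with HTSeq 0.6.1p1 on mm9 per the submitters' processing notes. The aligner, the annotation and the strand setting of the counting are not given in the sources used here, so reads of overlapping antisense genes may not be told apart. The deposited table held no count for 13 mitochondrial genes and no count at all for 10419 of 32499 genes.

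Counts were tested in R 4.3.3 with edgeR 4.0.16. Genes were kept by filterByExpr with the groups, leaving 12970, and libraries were scaled by TMM. The quasi-likelihood fit held all 8 libraries with 1 term per group, since the groups then share an estimate of the spread on 4 residual degrees of freedom (common biological coefficient of variation 0.0958). P-values were adjusted by Benjamini-Hochberg over all 12970 genes and called under 0.05. The edgeR test of TAF15-ZNF384 against ZNF384 was also run on simulated counts with known changes. The other steps were not tested in this way.

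The 35 gene lists and the genes named were chosen with earlier results of these data known. The genes named are Zfp384, Taf15, Tcf3 and Cdkn2a, then up to 12 per direction with the largest change among called genes that averaged 5 CPM or more where they were higher, no overlap between the libraries of the 2 groups and a proper gene name, then up to 4 per direction in each list by adjusted p. Beyond this rule, some members that did not pass, that lost their call, that had few counts or that make up a cell type marker list were named after their values were seen. A fold against a group at 0 used a floor of 3 counts over the group. Exact intervals at 95% cover counting error only. Gene positions are those of the mm9 annotation; promoters are RefSeq windows of GRCm38.p6. Of 12970 tested genes, 9041 matched a window by symbol. In all, 5 motifs are reported, and 3 others (cAMP, sterol regulatory and C/EBP-ATF elements) were searched and not used. The E box was found in 63.7% of windows of tested genes and in 16 of 20 windows of the cholesterol list (80.0%). Other lists held larger shares, such as 21 of 22 windows of the pre-B cell receptor list (95.5%).

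Alternatives were DESeq2 1.42.0 size factors and its Wald test, other filters, a fit restricted to both groups of a comparison, a replicate block, leaving out 5 abundant non-coding genes, thinning to 9381954 counts, leaving out each library in turn and, chosen after seeing the data, library totals without TMM.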

Additional observations from a re-analysis of the deposited data

How the results depend on the processing

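The count of genes changed between TAF15-ZNF384 and ZNF384 (4320) stayed between 2942 and 4653 under 9 alternatives that kept every library of both groups. With only the groups compared, the other groups were left out of the fit. The count was 4292 by DESeq2 size factors and 3657 by the DESeq2 Wald test. Leaving out single libraries gave 2158 to 5333. For TAF15-ZNF384 against EV (1430) the count was 2746 when only these groups entered the fit, 940 after thinning, and 404 to 686 without single libraries. For ZNF384 against EV (2675) it was 1563 after thinning and 1064 to 3814 without single libraries. Scaling by totals raised the share of higher calls to 65% of 4191 in place of 46.4%, and to 67.1% of 1540 against EV with TAF15-ZNF384 in place of 45.5%. With only the groups compared, ZNF384 against EV gave 1787 calls, fewer than the 2746 of TAF15-ZNF384 against EV. Of those 1787, 41.7% were higher in place of 52.1%. The cause of these moves was not tested.

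With the replicate number as a block the 3 counts were 4653, 1825 and 2999, and no named gene changed its call. No source used here says that a number marks a shared culture or day. Deviations of same-numbered libraries from their group means correlated at -0.0117 between TAF15-ZNF384 and ZNF384 and between 0.0149 and 0.221 in the other 5 pairs of groups, 3 of them over 0.1, so a pairing is not established.

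Of 195 named genes, 192 passed the threshold, and 51 lost the call under at least 1 alternative. Of these, 25 lost it under one that kept every library of both groups. None of the named genes reversed its direction under any alternative run. The lower totals of the TAF15-ZNF384 libraries limit genes of low level, where 1 read is worth 0.109 and 0.106 CPM. With 2 libraries a group, leaving 1 out rests its group on a lone library taken to vary like the others.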
